A study of Mus musculus with 12 samples.

Results

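Egr1, Egr2, Egr3, Egr4, Nr4a1, Nr4a2, Nr4a3, Npas4 and Arc were examined in retinal RNA of mice with experimental autoimmune encephalomyelitis (EAE) and optic neuritis. These 9 genes were taken by symbol from the 54532 gene identifiers of the count and FPKM tables, and 8 of them were among the 18299 genes with enough counts to test; Egr2 was not. All mice were wild type C57BL/6 aged 13 weeks, and per the study's methods they were female. SHAM mice served as controls, and MOG mice were immunized with the myelin oligodendrocyte glycoprotein peptide in complete Freund's adjuvant together with pertussis toxin. GB20 and GV16 mice received the same immunization and were then needled, under xylazine and ketamine, at the acupoint GB20 or at the control acupoint GV16. Needling was repeated every 3 days over 2 weeks, and the time from the last session to dissection is not stated. Each of the 4 groups had 3 libraries of whole retina, with a total gene count of 16637268 to 18033426 in SHAM, 16122738 to 18067710 in MOG, 16338917 to 19194280 in GB20 and 15860278 to 16198995 in GV16. Per the study's methods, each experiment had 2 or 3 mice per group and was repeated 3 times. The methods call the sequenced samples 3 biological replicates. Which mice and which repeat each library holds is not given in the sources used here. If some libraries are not separate animals, the p-values measure only the spread between libraries.

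These genes are immediate-early or activity-regulated genes. In neurons, calcium entry and growth factor signals act through kinases on the transcription factors CREB, SRF and MEF2, which are already present, so that such genes are transcribed within minutes and without new protein synthesis. EGR proteins are zinc finger transcription factors, and NR4A proteins are orphan nuclear receptors that need no ligand to act. NPAS4 is a neuron-restricted transcription factor induced by calcium, and ARC is a synaptic protein that drives the removal of AMPA receptors and assembles into virus-like capsids. In the retina, EGR1 is known from amacrine cells, where its level follows the sign of defocus and the light signal, and NR4A2 is needed for amacrine cell subtypes that include the dopaminergic cells.

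The promoters are shown because CREB binding sites are a textbook feature of this gene class. RefSeq start site windows on GRCm38.p6, each with 250 bases before and 50 after the start, were matched for 6 of the 9 genes (Egr2, Egr4, Nr4a1, Nr4a2, Nr4a3 and Npas4). The cyclic AMP response element (CRE) half-site TGACG was searched on both strands, so that it also reads CGTCA, and a full CRE (TGACGTCA) holds overlapping half-sites and would count as 2. Capitals mark half-sites in the stretches below, all of which lie before the RefSeq start. For Npas4 only a stretch of 30 bases around the matches is shown, which lies within the annotated gene. The Nr4a1 start is that of a transcript that begins within the annotated gene. Each stretch is written 5′ to 3′ on the strand of its gene.
Egr4, chr6:85513590-85513839, minus strand: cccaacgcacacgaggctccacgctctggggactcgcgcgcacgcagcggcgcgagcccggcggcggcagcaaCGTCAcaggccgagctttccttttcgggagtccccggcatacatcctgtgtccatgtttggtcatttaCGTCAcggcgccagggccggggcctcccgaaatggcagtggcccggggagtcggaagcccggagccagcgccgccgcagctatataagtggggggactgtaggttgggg
Nr4a1, chr15:101266596-101266845, plus strand: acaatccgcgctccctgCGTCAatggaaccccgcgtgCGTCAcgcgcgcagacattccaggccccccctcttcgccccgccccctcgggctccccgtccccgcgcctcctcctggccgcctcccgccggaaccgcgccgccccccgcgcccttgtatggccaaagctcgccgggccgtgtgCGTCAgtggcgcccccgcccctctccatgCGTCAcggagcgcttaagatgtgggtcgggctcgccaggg
Nr4a2, chr2:57124004-57124253, minus strand: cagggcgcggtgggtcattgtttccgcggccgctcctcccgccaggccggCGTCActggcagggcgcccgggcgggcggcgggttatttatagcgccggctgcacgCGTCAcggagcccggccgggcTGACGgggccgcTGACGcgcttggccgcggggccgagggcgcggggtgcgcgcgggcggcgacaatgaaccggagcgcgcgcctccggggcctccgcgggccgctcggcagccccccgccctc
Nr4a3, chr4:48045055-48045152, plus strand: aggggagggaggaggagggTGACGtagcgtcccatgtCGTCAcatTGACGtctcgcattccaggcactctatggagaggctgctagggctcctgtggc
Npas4, chr19:4990124-4990153, minus strand: cgaCGTCAcgggaTGACGtcggaagtctgg

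Over their whole windows of 300 bases, Nr4a1, Nr4a2 and Nr4a3 each held 4 half-sites. Among all 32851 windows of this length, 20.8% held at least 1 half-site, 5.01% at least 2 and 0.231% at least 4. Egr4 and Npas4 held 2 each, and Egr2 held 2 in 3 of its 5 windows. These 3 Egr2 windows overlap each other, so their matches can be the same bases. The full CRE, found in 1.79% of all windows, was in none of the windows of these 6 genes. The same was true of the EGR site GCGTGGGCG (0.612% of all windows) and of the NR4A monomer site AAAGGTCA (1.51%), both searched on both strands. The CArG box, which SRF binds, was found in 4 of the 5 Egr2 windows, among them the 3 that overlap. It was in 1.63% of all windows and in no window of the other 5 genes. A match of letters is a description of the sequence and was not tied to binding in these retinas.

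Levels were compared between genes as FPKM, which corrects for gene length. Nr4a1 was the most abundant at 13.5 ± 3.46 FPKM (SD over the 12 libraries), and it lay above Egr1 in 11 of 12 libraries. Egr1 followed at 9.22 ± 5.86 FPKM, ahead of Nr4a2 in all 12 libraries. Nr4a2 at 2.26 ± 0.268 FPKM and Npas4 at 2.03 ± 0.368 FPKM came next and were close to each other, with Nr4a2 higher in 9 of 12 libraries. Below them lay Egr4 at 0.754 ± 0.533 FPKM, Nr4a3 at 0.604 ± 0.315 FPKM, Arc at 0.575 ± 0.155 FPKM and Egr3 at 0.492 ± 0.169 FPKM. Neighbours in this lower range changed places between libraries, since Egr4 was above Nr4a3 in 6 of 12, Nr4a3 above Arc in 6 of 12 and Arc above Egr3 in 8 of 12. Egr2 was the lowest at 0.0516 ± 0.0236 FPKM, below Egr3 in all 12 libraries. In the comparisons that follow, levels of a single gene are given in CPM, counts per megacount of the tested genes after scaling by the trimmed mean of M values (TMM).

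**Figure D1:**
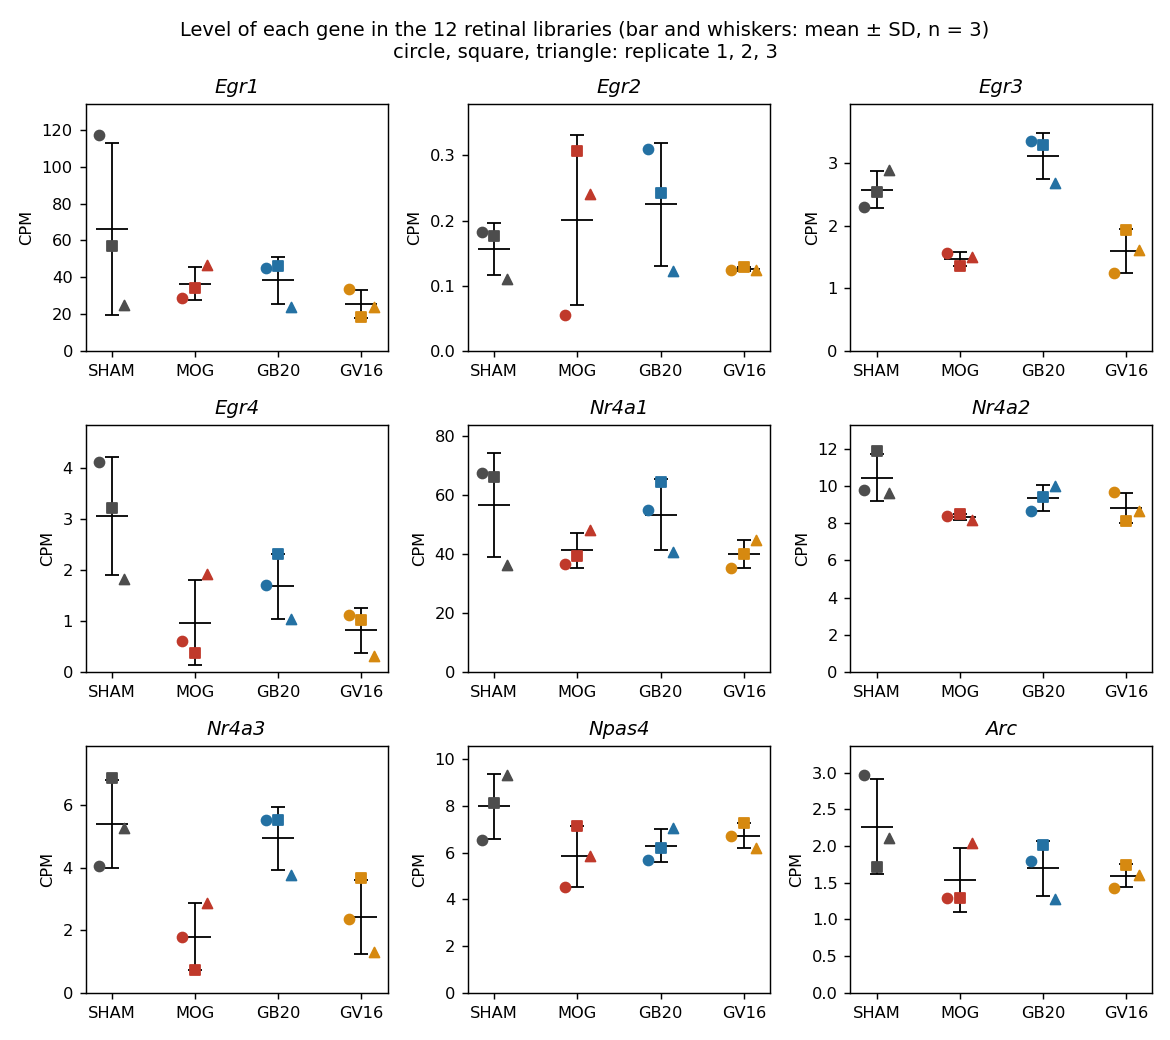
Level of each of the 9 genes (y axis, CPM, each panel on its own scale from 0) in the 4 groups (x axis). Symbols are single libraries, and the bar with whiskers is the mean ± SD of 3 libraries. For Egr3 all MOG and GV16 libraries lie below all SHAM and GB20 libraries, while for Egr1 the highest library (SHAM 1, 117 CPM) and SHAM 3 at 24.8 CPM are in the same group.

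Egr1 (ENSMUSG00000038418, chromosome 18, 34859823 to 34864984, protein-coding) encodes the founding EGR factor. The SHAM libraries held 117, 56.9 and 24.8 CPM, the MOG libraries 28.9, 34.4 and 46.4 CPM, the GB20 libraries 45.3, 46 and 23.7 CPM, and the GV16 libraries 33.7, 18.6 and 24.1 CPM. All 4 groups overlapped, and the SHAM libraries alone spanned nearly the range of the whole series. In MOG vs. SHAM the log2 fold change was -0.86 with a standard error (SE) of 0.534, and without SHAM replicate 1 it was -0.15, so that 1 library carried most of the difference. Its biological coefficient of variation, the spread between libraries of one group beyond counting error, was 0.442 against 0.0777 for the trend of genes at its level, number 62 from the top among the 18299 tested genes.

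Egr2 (ENSMUSG00000037868, chromosome 10, 67535475 to 67542188, protein-coding), best known from Schwann cell myelination and the hindbrain, was near the detection limit. Its raw counts were 3, 3 and 2 for the SHAM libraries, 1, 5 and 4 for MOG, 6, 4 and 2 for GB20, and 2, 2 and 2 for GV16. With at most 6 counts in a library, no difference between groups was detectable at this depth, and the gene was not tested.

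Egr3 (ENSMUSG00000033730, chromosome 14, 70077203 to 70082614, protein-coding), a factor downstream of sensory and synaptic activity, separated the groups into a high pair and a low pair. Its level was 2.3, 2.53 and 2.89 CPM in SHAM, 1.57, 1.35 and 1.5 CPM in MOG, 3.35, 3.28 and 2.68 CPM in GB20, and 1.24, 1.93 and 1.61 CPM in GV16. Every MOG library lay below every SHAM library, and every GB20 library lay above every MOG and every GV16 library. GB20 overlapped SHAM, and GV16 overlapped MOG. These levels rest on 38 to 52 counts per library in SHAM, 22 to 28 in MOG, 44 to 65 in GB20 and 20 to 30 in GV16. Its coefficient of variation of 0.121 was below the trend of 0.164 for its level. The within-group SD, which includes counting error, was 0.201 on the log2 scale, against a median of 0.154 over all tested genes.

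Egr4 (ENSMUSG00000071341, chromosome 6, 85511121 to 85513589, protein-coding, 1 transcript) is the EGR factor that lacks the NAB co-repressor domain. Its level was 4.12, 3.23 and 1.83 CPM in SHAM, 0.616, 0.369 and 1.92 CPM in MOG, 1.7, 2.31 and 1.04 CPM in GB20, and 1.12, 1.03 and 0.31 CPM in GV16. MOG replicate 3 lay 3 or more times above the other MOG libraries and above the lowest SHAM library, so MOG and SHAM overlapped. GV16 lay below SHAM with no overlap. The gene was counted 5 to 68 times per library, and its coefficient of variation was 0.402 against a trend of 0.184.

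The NR4A genes differed from each other in level and in spread. Nr4a1 (ENSMUSG00000023034, chromosome 15, 101254269 to 101274795, protein-coding), also called NUR77, had 67.4, 66 and 36.2 CPM in SHAM, 36.7, 39.1 and 47.9 CPM in MOG, 54.9, 64.3 and 40.6 CPM in GB20, and 35.3, 39.9 and 44.8 CPM in GV16. The highest 4 libraries were SHAM 1 and 2 and GB20 1 and 2, while the third library of both groups lay with MOG and GV16. Its coefficient of variation of 0.214 stood against a trend of 0.0762.

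Nr4a2 (ENSMUSG00000026826, chromosome 2, 57106830 to 57124003, protein-coding), or NURR1, was the steadiest of the 8 tested genes. Its level was 9.81, 11.9 and 9.65 CPM in SHAM, 8.4, 8.48 and 8.17 CPM in MOG, 8.65, 9.42 and 10 CPM in GB20, and 9.69, 8.1 and 8.67 CPM in GV16. MOG lay below SHAM and below GB20 without overlap, by a small amount in both cases. The within-group SD was 0.12 on the log2 scale, against a median of 0.154 over all tested genes.

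Nr4a3 (ENSMUSG00000028341, chromosome 4, 48045153 to 48086447, protein-coding), or NOR1, varied most widely of the NR4A genes. It reached 4.06, 6.88 and 5.27 CPM in SHAM, 1.79, 0.737 and 2.88 CPM in MOG, 5.51, 5.53 and 3.78 CPM in GB20, and 2.36, 3.66 and 1.3 CPM in GV16. SHAM and GB20 overlapped each other and lay above all MOG and all GV16 libraries. The groups fell into the same pairs as for Egr3, SHAM and GB20 high and GV16 and MOG low, but with more spread: the coefficient of variation was 0.311 against a trend of 0.141.

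Npas4 (ENSMUSG00000045903, chromosome 19, 4984355 to 4990316, protein-coding) had 6.54, 8.12 and 9.32 CPM in SHAM, 4.53, 7.13 and 5.88 CPM in MOG, 5.67, 6.2 and 7.06 CPM in GB20, and 6.71, 7.26 and 6.19 CPM in GV16. Arc (ENSMUSG00000022602, chromosome 15, 74669083 to 74672570, protein-coding) had 2.97, 1.71 and 2.11 CPM in SHAM, 1.29, 1.29 and 2.04 CPM in MOG, 1.8, 2.01 and 1.28 CPM in GB20, and 1.43, 1.74 and 1.61 CPM in GV16. Both genes had their highest group mean in SHAM and their lowest in MOG, and all pairs of groups overlapped. Their coefficients of variation, 0.121 for Npas4 and 0.168 for Arc, lay near the trends of 0.117 and 0.178.

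**Figure D2:**
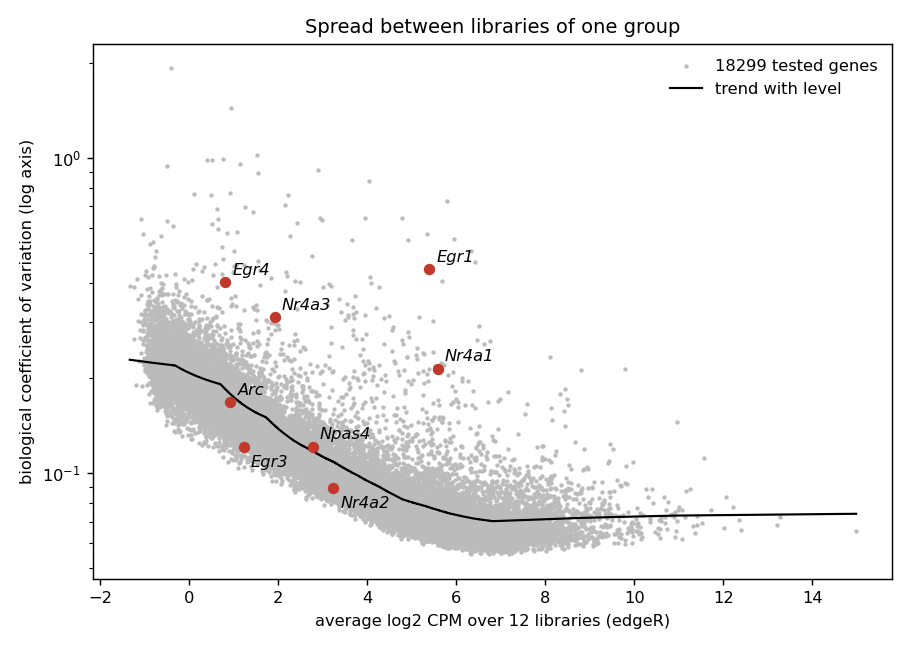
Biological coefficient of variation between libraries of one group (y axis, log scale) against the average level (x axis, log2 CPM) for the 18299 tested genes (grey), with the trend (line) and the 8 tested genes (red). Egr1 (0.442), Egr4 (0.402), Nr4a3 (0.311) and Nr4a1 (0.214) lie well above the trend, and Egr3, Npas4, Nr4a2 and Arc lie near or below it.

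MOG vs. SHAM addresses how the immunization and its optic neuritis changed retinal expression. None of the 8 tested genes was a differentially expressed gene (DEG, Benjamini-Hochberg adjusted p under 0.05) by edgeR's quasi-likelihood test, where 1.34% of all tested genes were. All 8 had a fitted value lower in MOG, compared with 50.5% of all tested genes, and their median log2 fold change was -0.676 against -0.002 over all tested genes. At an unadjusted p under 0.05, 5 of the 8 genes were lower, where 13% of all tested genes passed in either direction. MOG lay below SHAM without overlap for Egr3, Nr4a2 and Nr4a3, as it did for 8.34% of all tested genes.

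The smallest adjusted p belonged to Nr4a3, with a log2 fold change of -1.58 (95% interval -2.43 to -0.72, SE 0.395, edgeR adjusted p = 0.0819). Egr3 had a log2 fold change of -0.8 (SE 0.236, edgeR adjusted p = 0.11) and Egr4 of -1.65 (SE 0.505, edgeR adjusted p = 0.166). Npas4 had -0.46 (SE 0.17), Nr4a2 -0.33 (SE 0.129), Nr4a1 -0.46 (SE 0.257) and Arc -0.55 (SE 0.279), with edgeR adjusted p between 0.243 for Npas4 and 0.502 for Nr4a1. Single libraries moved some of these values: Npas4 had -0.3 without MOG replicate 1, Arc -0.3 and Nr4a1 -0.3 without SHAM replicate 1, and Nr4a1 -0.7 without SHAM replicate 3. The calls for Egr4 and Nr4a3 depended on the test. Restricted to the 6 MOG and SHAM libraries, DESeq2 called both (adjusted p = 0.0237 for Egr4 and 0.00067 for Nr4a3), DESeq2 on all 12 libraries called 1 gene, Egr4, and limma-voom called 0. Without MOG replicate 3, edgeR called both, with log2 fold changes of -2.59 for Egr4 and -2.06 for Nr4a3. Without GV16 replicate 2 or without GV16 replicate 3, libraries that enter only the shared estimate of spread, it called Nr4a3 alone.

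Markers of retinal ganglion cells (RGC), the neurons whose axons form the optic nerve, moved in the same comparison. All 8 of 8 listed markers were down-regulated in MOG vs. SHAM, with a median log2 fold change of -0.898 and a summed level of 219 to 265 CPM in MOG against 360 to 407 CPM in SHAM. In whole retina, fewer cells of a type and less RNA per cell cannot be told apart. The summed level of 8 amacrine markers was 654 to 761 CPM in MOG and 655 to 714 CPM in SHAM, with 0 of 8 called. Microglia markers summed to 25.3 to 28.9 CPM in MOG and 15.5 to 20.8 CPM in SHAM (2 of 6 upregulated), and pigment epithelium markers to 30.7 to 44.1 and 14.6 to 21.9 CPM (0 of 5 called). Markers of Müller glia, the radial glia of the retina, summed to 2830 to 3150 CPM in MOG and 3160 to 3380 CPM in SHAM, with 1 of 6 called. That was the water channel gene Aqp4, higher in MOG (log2 fold change 0.46, SE 0.0707, edgeR adjusted p = 0.000812). Of 4 neutrophil and 4 T cell markers, none had enough counts to test, and Ly6g was at 0 in all 12 libraries. The part of these cell types in the values of the EGR and NR4A genes was not tested.

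GB20 vs. MOG asks what needling at the acupoint under anaesthesia changed in immunized mice. Anaesthesia is described only for needled mice, so its part cannot be told apart from needling here or in other comparisons with unneedled groups. In GB20 vs. MOG Egr3 was upregulated. Its log2 fold change was 1.07 (SE 0.231, 95% interval 0.59 to 1.55), 2.1-fold, with an adjusted p = 0.0488 from edgeR, and it was higher in 3 of 3 GB20 libraries than in any MOG library. DEGs made up 0.24% of all tested genes in this comparison, and 0.0984% were upregulated. By p-value Egr3 was number 44 of the 44 DEGs, so it stood at the threshold. The fold was close to this value in every count-based fit that was tried, but the call was not: edgeR adjusted p was 0.055 with upper quartile scaling, and DESeq2 on all 12 libraries gave an adjusted p = 0.0575. DESeq2 on the 6 libraries gave the gene no adjusted p, and limma-voom gave 0.0748. Leaving out any one of the 6 GB20 and MOG libraries ended the call, and so did leaving out SHAM 1, SHAM 3, GV16 2 or GV16 3.

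The other 7 genes did not pass in GB20 vs. MOG, although all 8 genes were fitted higher in GB20, compared with 50.2% of all tested genes. At an unadjusted p under 0.05, 2 of the 8 passed, Egr3 and Nr4a3, where 8% of all tested genes did. Nr4a3 had the largest fitted difference, a log2 fold change of 1.45 (SE 0.397, 95% interval 0.59 to 2.31, edgeR adjusted p = 0.309). Of 23 alternative fits, 1 called it, edgeR without a filter on low counts (adjusted p = 1.11e-06). DESeq2 gave an adjusted p of 0.206 on the 6 libraries and 0.303 on all 12, and limma-voom gave 0.246. GB20 lay above MOG without overlap for Egr3, Nr4a2 and Nr4a3, and 7.96% of all tested genes did so. Egr4 had a log2 fold change of 0.8 (SE 0.536), Nr4a1 of 0.37 (SE 0.258) and Nr4a2 of 0.17 (SE 0.13). The Egr4 value was 1.74 without MOG replicate 3, 0.42 without MOG replicate 2 and 0.51 without GB20 replicate 2. For Arc (0.14, SE 0.288), Npas4 (0.11, SE 0.173) and Egr1 (0.07, SE 0.543) the fitted values were smaller than their standard errors. The median of the 8 was 0.269 against 0.001 over all tested genes. MOG libraries enter this comparison and MOG vs. SHAM, so the opposite signs of both are not separate observations.

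The RGC markers were not called in GB20 vs. MOG (0 of 8), and their summed level was 267 to 271 CPM in GB20, above the 219 to 265 CPM of MOG. All 8 were fitted higher in GB20, compared with 50.2% of all tested genes. At an unadjusted p under 0.05, 3 of the 8 were higher (8% of all in either direction), and 3 lay above MOG without overlap (7.96% of all). Amacrine markers summed to 602 to 676 CPM in GB20. Müller glia markers summed to 3070 to 3250 CPM, and 1 of 6 was called, Aqp4, lower in GB20 (log2 fold change -0.35, SE 0.0705, edgeR adjusted p = 0.0293). In SHAM the RGC markers summed to 360 to 407 CPM. Egr3 had 2.68 to 3.35 CPM in GB20 and 2.3 to 2.89 CPM in SHAM. The part of RGC and Müller glia RNA in these differences was not tested.

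**Figure D3:**
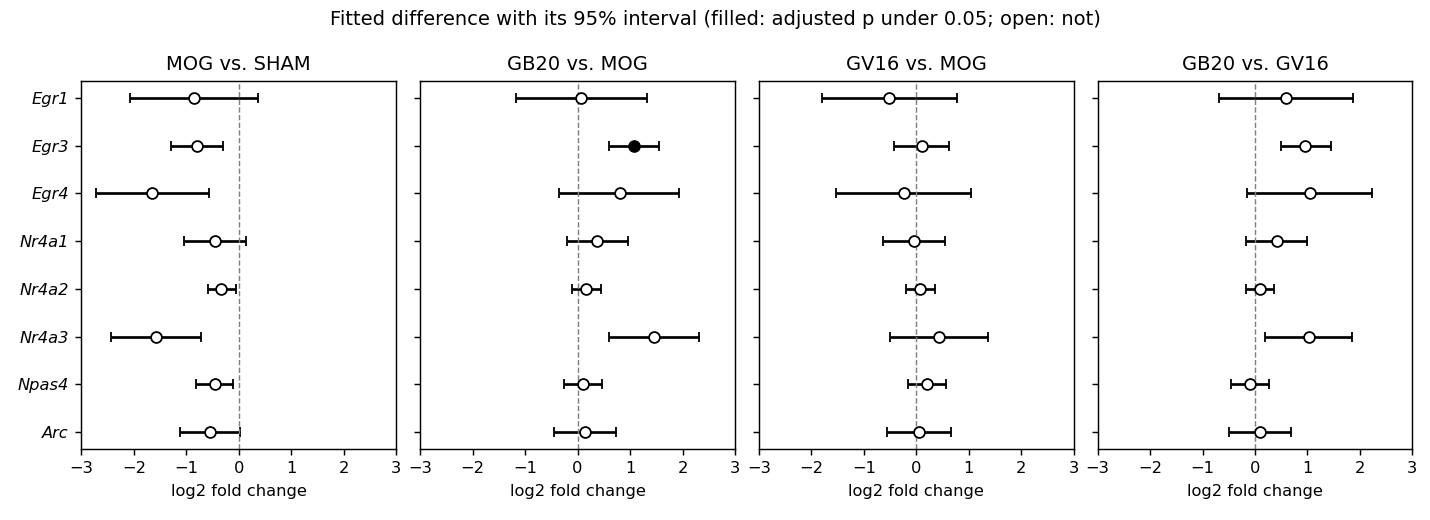
Log2 fold change (x axis) of the 8 tested genes (y axis) in 4 comparisons, named above the panels, with 95% intervals derived from the edgeR test. Filled points had an adjusted p under 0.05, which was 1 point, Egr3 in GB20 vs. MOG, and the intervals of Egr3 and Nr4a3 lie on 1 side of 0 in all panels but GV16 vs. MOG.

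GV16 vs. MOG asks the same of the control acupoint. None of the 8 genes was a DEG by edgeR, where 0.164% of all tested genes were, and 0 of 8 had an unadjusted p under 0.05, where 5.3% of all did. DESeq2 and limma-voom also called 0. GV16 and MOG overlapped for all 8 genes, while 12.6% of all tested genes did not overlap. Egr3 had a log2 fold change of 0.11 with a 95% interval of -0.42 to 0.63. For Nr4a3 the log2 fold change was 0.43 (95% interval -0.51 to 1.37), and for Egr4 it was -0.24 (-1.53 to 1.05). Egr1 had -0.52 (SE 0.56), and the remaining 4 genes lay between -0.04 and 0.2. RGC markers summed to 202 to 290 CPM in GV16, with 0 of 8 called in this comparison. Müller glia markers summed to 3150 to 3320 CPM, and Aqp4 was again lower (log2 fold change -0.34, SE 0.0707, edgeR adjusted p = 0.0472). The part of these cells was not tested. Leaving out 1 library moved the Nr4a3 value to between 0.02 (GV16 replicate 2) and 0.91 (MOG replicate 3), and Egr1 came to -0.32 without MOG replicate 3 and -0.34 without GV16 replicate 2.

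The direct test between the needling sites is GB20 vs. GV16. None of the 8 genes passed by edgeR (adjusted p = 1 for each), and 0.00546% of all tested genes, 1 gene, did. DESeq2 and limma-voom called 0 of the 8, and 2 of the 8 had an unadjusted p under 0.05, compared with 2.93% of all tested genes. Those were Egr3, with a log2 fold change of 0.96 (SE 0.231, 95% interval 0.49 to 1.44, unadjusted p = 0.000371 by edgeR, number 6 of all tested genes), and Nr4a3, with 1.02 (SE 0.384, 95% interval 0.19 to 1.85). In both genes all GB20 libraries lay above all GV16 libraries, as in 4.03% of all tested genes. Without a filter on low counts edgeR called Nr4a3 (adjusted p = 0.0239). Egr4 had 1.04 (SE 0.557, and 0.64 without GV16 replicate 3), Egr1 0.59 (SE 0.558) and Nr4a1 0.41 (SE 0.259, and 0.26 without GB20 replicate 2), all with overlapping groups, and Nr4a2, Arc and Npas4 lay between -0.09 and 0.1. A difference between the sites was therefore not established for any of these genes by the adjusted test.

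Each needled group was also set against SHAM, and these 2 comparisons are no test between the sites, for which GB20 vs. GV16 stands above. In GB20 vs. SHAM, 0 of 8 genes were DEGs by edgeR, DESeq2 or limma-voom (0.344% of all tested genes by edgeR), 0 had an unadjusted p under 0.05 (9.06% of all) and all 8 overlapped, while 12.7% of all tested genes did not. The log2 fold change was 0.27 for Egr3 (95% interval -0.17 to 0.71), -0.13 for Nr4a3 (-0.88 to 0.62), -0.85 for Egr4 (-1.85 to 0.14) and -0.79 for Egr1 (-2.01 to 0.43), which was -0.08 without SHAM replicate 1. In GV16 vs. SHAM, 0 of 8 were DEGs by edgeR (0.656% of all tested genes), and 4 of 8 were lower at an unadjusted p under 0.05, against 10.9% of all in either direction. These were Egr4 with a log2 fold change of -1.89 (SE 0.524, edgeR adjusted p = 0.151), Egr1 with -1.38 (SE 0.551, and -0.67 without SHAM replicate 1), Nr4a3 with -1.15 (SE 0.382) and Egr3 with -0.69 (SE 0.235). GV16 lay below SHAM without overlap for Egr3, Egr4 and Nr4a3, as for 7.6% of all tested genes. DESeq2 on the 6 libraries called 2 of them, Egr4 (adjusted p = 0.00369) and Nr4a3 (adjusted p = 0.0395), DESeq2 on all 12 called 1, and limma-voom called 0. Without MOG replicate 3, edgeR called Egr4. All 8 of 8 RGC markers lay below SHAM without overlap in both comparisons, against the shares of all tested genes given above. Their median log2 fold change was -0.534 in GB20 and -0.729 in GV16. As DEGs, 2 of 8 were down-regulated in GB20 and 7 of 8 in GV16, but 0 of 8 were called in GB20 vs. GV16. Rlbp1, a retinoid-binding protein gene of Müller glia and pigment epithelium, was lower in GV16 vs. SHAM (log2 fold change -0.36, SE 0.0781, edgeR adjusted p = 0.0261). The part of these cell types was not tested.

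The genes whose levels followed these genes most closely over the 12 libraries were named for the 4 with the widest variation. Likeness was the root-mean-square difference of log2 CPM after each gene was centred on its own mean, among 16027 genes with a mean of at least 1 CPM. For Egr1 the nearest were Fos (0.362), Dusp1 (0.449) and Smpdl3a (0.452), against an SD of Egr1 itself of 0.72. Fos encodes an AP-1 subunit and Dusp1 a phosphatase of MAP kinases, and both are immediate-early genes too. Fos had 38.8 ± 16 CPM in SHAM, 25.6 ± 6.49 in MOG, 31.7 ± 8.83 in GB20 and 24.1 ± 0.589 in GV16 (SD, n = 3).

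For Egr3 the nearest genes were Slc35d3 (0.263), Prr5 (0.273) and Amhr2 (0.275), against an own SD of 0.493. Prr5, a component of the mTORC2 kinase complex, had 6.5 ± 0.789 CPM in SHAM, 4.05 ± 0.0894 in MOG, 7.32 ± 0.476 in GB20 and 5.42 ± 0.426 in GV16 (SD, n = 3). For Nr4a3 they were Dio2 (0.455), 1700016P03Rik (0.517) and Rprml (0.558), against an own SD of 0.938. Dio2 encodes the deiodinase that activates thyroid hormone and had 62.8 ± 21.3 CPM in SHAM, 29.6 ± 14.3 in MOG, 60.9 ± 6.85 in GB20 and 51.3 ± 31.2 in GV16. For Egr4 they were Gm15631 (0.691), Hapln1 (0.694) and H1fx (0.699), against an own SD of 1.09 at counts down to 5.

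**Figure D4:**
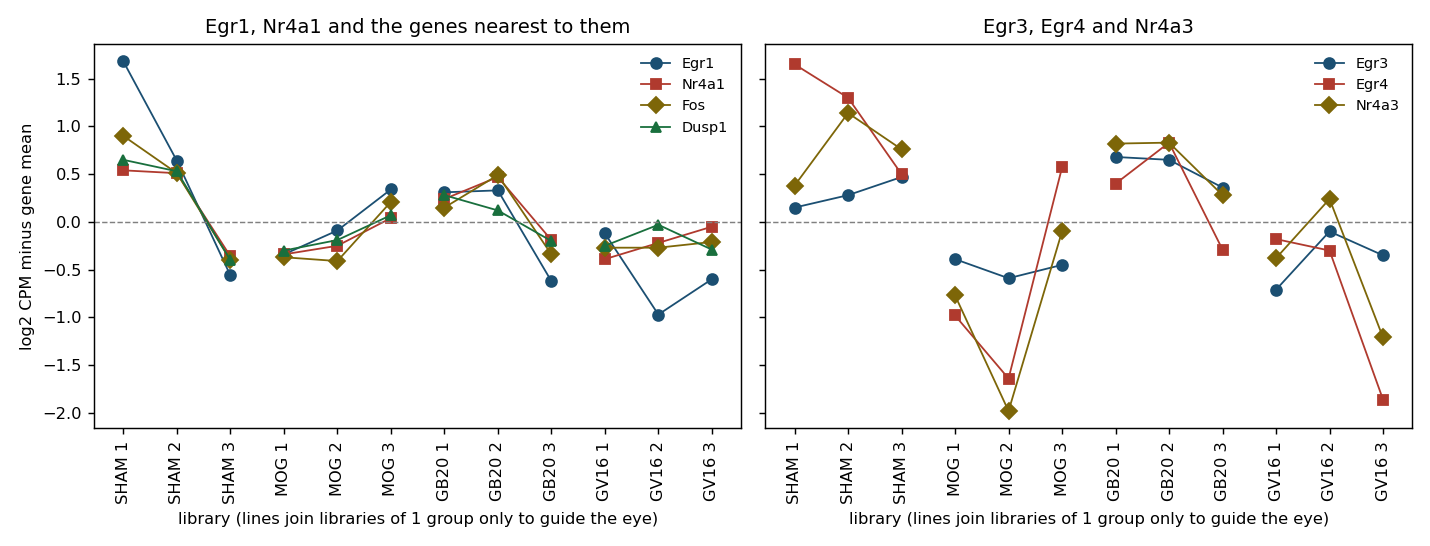
Log2 CPM minus the gene's own mean over the 12 libraries (y axis) in each library (x axis) for Egr1, Nr4a1, Fos and Dusp1 (left) and for Egr3, Egr4 and Nr4a3 (right). On the left, SHAM 1 and 2, GB20 1 and 2 and MOG 3 are the highest libraries in all 4 genes, and SHAM 3 and GB20 3 are low. On the right, Nr4a3 is lowest in MOG 2 (0.737 CPM) and Egr4 in GV16 3 (0.31 CPM).

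Which library of a group was highest or lowest was counted over genes. Over all tested genes, a library was the highest of its group for 29.9% to 37.7% of genes and the lowest for 27.7% to 38.9%. Within MOG, replicate 3 was the highest library for 5 of the 8 tested genes and for 20 of the 33 tested genes of a list of other primary response genes (30.1% of all tested genes). Within GB20, replicate 3 was the lowest for 6 of 8 and for 25 of 33 (34% of all), and replicate 2 the highest for 5 of 8 and for 25 of 33 (33.9% of all). Within SHAM, replicate 3 was the lowest for 4 of 8 and for 21 of 33 (33.4% of all). The part of these libraries in the comparisons is given above where leaving 1 out changed a call.

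The other primary response genes, 34 by list and 33 tested, served to place the EGR and NR4A genes within their class. In MOG vs. SHAM 1 was upregulated, where 1.34% of all tested genes were called. It was Gadd45b, a gene of DNA demethylation and stress signalling. Its level was 7.75, 8.7 and 5.55 CPM in SHAM and 10.6, 12.5 and 13.5 CPM in MOG, so that its log2 fold change came to 0.74 (SE 0.17, edgeR adjusted p = 0.0287). Leaving out the SHAM 1, SHAM 3, MOG 2 or MOG 3 library ended this call. Dusp1 was down-regulated only without SHAM replicate 3 (log2 fold change -0.72, edgeR adjusted p = 0.00343, from -0.46 with it). With all libraries none was down-regulated, 21 of 33 were fitted lower against 50.5% of all tested genes, and their median log2 fold change was -0.1, compared with -0.676 for the 8 EGR, NR4A, Npas4 and Arc genes.

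In GB20 vs. MOG 1 of the 33 was upregulated, where 0.24% of all tested genes were called. It was the clock gene Per1, which CREB also induces. It had 83.1, 97.3 and 112 CPM in MOG and 132, 160 and 131 CPM in GB20, with no overlap and a log2 fold change of 0.53 (SE 0.104, edgeR adjusted p = 0.0337). Leaving out either of MOG replicates 1 and 2, any GB20 library, SHAM replicate 3 or GV16 replicate 3 ended this call. Fitted values were higher in GB20 for 24 of 33 genes, against 50.2% of all tested genes, with a median log2 fold change of 0.102. In GV16 vs. MOG and in GB20 vs. GV16, 0 of the 33 were DEGs by edgeR, with medians of -0.074 and 0.118, and 3 and 4 had an unadjusted p under 0.05, where 5.3% and 2.93% of all tested genes did.

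The AP-1 genes and other classical immediate-early genes did not pass in either comparison with all libraries. Fos had log2 fold changes of -0.6 in MOG vs. SHAM and 0.31 in GB20 vs. MOG, Dusp1 of -0.46 and 0.21, and Ier2 of -0.2 and 0.22. Btg2, an antiproliferative gene, had -0.11 and 0.16, and Junb -0.08 and 0.1. Fosb, another AP-1 subunit, had 0.35 and -0.27, the signs opposite to those of Fos.

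**Figure D5:**
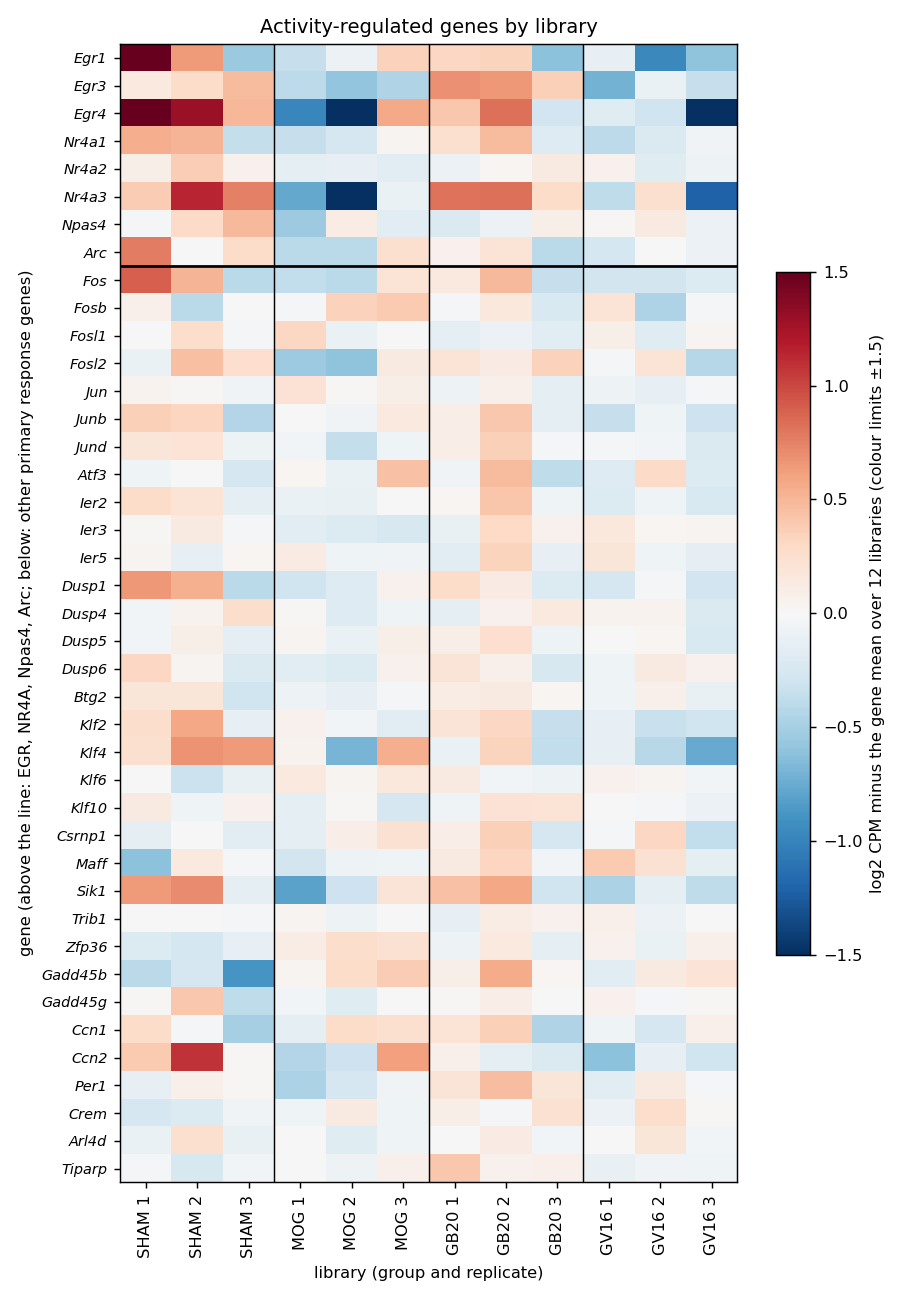
Log2 CPM minus the gene's own mean over the 12 libraries (colour, limited to ±1.5) for the 8 tested genes (above the line) and 33 other primary response genes (below) in each library. Egr1, Egr4 and Nr4a3 have the strongest colours, Egr3 is below its mean in all MOG and GV16 libraries, and most genes below the line stay pale, with Gadd45b low in SHAM and Per1 above its mean in all GB20 libraries.

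Few genes on either side of the EGR and NR4A factors passed the test. Of 25 upstream kinases, coactivators and transcription factors, 0 were DEGs by edgeR in any of the 6 comparisons, and 3 had an unadjusted p under 0.05 in MOG vs. SHAM and 1 in GB20 vs. MOG, where 13% and 8% of all tested genes did, the shares to set beside all counts at this unadjusted p below. Srf had log2 fold changes of -0.05 in MOG vs. SHAM and 0.12 in GB20 vs. MOG, and Creb1 of 0.13 and -0.05. Of 8 co-repressors and partners, which include the EGR co-repressors Nab1 (0.08 and 0.19) and Nab2 (-0.26 and 0.25), 0 were DEGs by edgeR in any comparison, and 2 had an unadjusted p under 0.05 in MOG vs. SHAM and 1 in GB20 vs. MOG. Nab2 is itself induced by EGR factors.

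Among 16 activity-regulated effector genes, 4 were lower and 1 higher at an unadjusted p under 0.05 in MOG vs. SHAM (13% of all tested genes). In GB20 vs. MOG 3 were lower and 1 higher (8% of all). The 1 DEG by edgeR was Nrn1, down-regulated in MOG vs. SHAM (1.34% of all tested genes were called) and in GV16 vs. SHAM (0.656%). This gene encodes neuritin, a membrane-anchored protein of neurite growth. It had 35.4, 30.9 and 33.1 CPM in SHAM, 20.3, 15.3 and 16.8 CPM in MOG, 23, 23.7 and 21.9 CPM in GB20, and 26.4, 19.4 and 14.8 CPM in GV16. All SHAM libraries lay above all others. Its log2 fold change was -0.92 in MOG vs. SHAM (SE 0.15, edgeR adjusted p = 0.00293) and -0.72 in GV16 vs. SHAM (SE 0.149, edgeR adjusted p = 0.0314). Leaving out any SHAM or GB20 library, MOG 3, GV16 2 or GV16 3 ended the call in GV16 vs. SHAM, and leaving out 1 library ended none in MOG vs. SHAM. The other 15 did not pass in any comparison, Bdnf, the neurotrophin, having -0.29 in MOG vs. SHAM and 0.29 in GB20 vs. MOG, the synaptic pentraxin Nptx2 -0.1 and 0.06, and the scaffold gene Homer1 0.03 and 0.18.

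NR4A2 target genes of dopamine neurons (6 of 8 tested) and partners of ARC and NPAS4 (10 of 10 tested) had 0 DEGs by edgeR in any of the 6 comparisons. Of the target genes, 1 had an unadjusted p under 0.05 in MOG vs. SHAM and 0 in GB20 vs. MOG. Th, which encodes the rate-limiting enzyme of dopamine synthesis, had a log2 fold change of -0.09 in MOG vs. SHAM (SE 0.203) and -0.39 in GB20 vs. MOG (SE 0.211). Of the ARC and NPAS4 partners, 1 had an unadjusted p under 0.05 in each of these comparisons.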

How the data were processed

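Polyadenylated retinal RNA was sequenced in 12 libraries, whose group was read from their titles. The authors aligned reads with HISAT2 2.0.5 to mm10 (per the submitters' processing notes), counted them with FeatureCounts and deposited raw whole-number counts for each gene. FPKM values, which the authors derived from count and gene length, were deposited too. For the annotation release and the strand setting, nothing is stated in the sources. Names and coordinates came from GENCODE vM21 (GRCm38). In it no exon of the 9 genes overlaps an exon of another gene. Total gene counts of 15860278 to 19194280 per library limit the precision for low genes.

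Tests on these counts ran under R 4.3.3 and edgeR 4.0.16 (expression filter over the 4 groups, TMM scaling, 1 mean per group, robust quasi-likelihood fit, 8 residual degrees of freedom), with Benjamini-Hochberg adjustment over 18299 genes for each of 6 comparisons. A DEG had an adjusted p under 0.05. The SE of a log2 fold change was derived from the edgeR test, as its absolute value divided by the square root of the F statistic. The 95% intervals were built from this SE with a t quantile. CPM used TMM-scaled totals of tested genes, and log2 CPM a prior count of 1. Alternatives were DESeq2 1.42.0, other scalings, no filter, a replicate block, limma 3.58.1 (voom, and log2 FPKM with a pseudocount of 1 or 0.1) and leaving out each library. The main fit and some alternatives were tested on simulated data whose spread followed the trend. This does not test them for genes well above the trend, such as Egr1, Egr4, Nr4a3 and Nr4a1. Figures used Python 3.11.15 and matplotlib 3.10.9. The 9 genes and the lists were chosen with earlier results of these data known. Genes named were these 9, every listed gene called in any comparison (at most 6 per list, markers given as sums and counts), 14 further listed genes, called or not (Fos, Fosb, Junb, Dusp1, Btg2, Ier2, Nab1, Nab2, Srf, Creb1, Bdnf, Nptx2, Homer1, Th) and the 3 genes of nearest pattern for the 4 most variable.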

Additional observations from a re-analysis of the deposited data

How the results depend on the processing

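The number of the 9 genes called varied with the fit. In MOG vs. SHAM it was 0, and became 2 by DESeq2 on the 6 libraries, 1 by DESeq2 on all 12, 2 with no filter on low counts and 0 to 2 with each library left out. In GV16 vs. SHAM it was 0, with 2, 1 and 2 under these alternatives and 0 to 1 with each library left out. In GB20 vs. MOG it was 1 (Egr3), and became 0 by DESeq2 on the 6 or on all 12 libraries, with upper quartile scaling, by limma-voom and by all 3 limma fits of log2 FPKM, 2 with no filter, and 0 to 1 with each library left out. In GB20 vs. GV16 it was 0, and 1 with no filter. The counts for GV16 vs. MOG and GB20 vs. SHAM were 0 in every fit. With no filter the genes called were Egr4 and Nr4a3 in MOG vs. SHAM and in GV16 vs. SHAM, Egr3 and Nr4a3 in GB20 vs. MOG, and Nr4a3 in GB20 vs. GV16. The adjusted p of Egr3, Egr4 and Arc in GB20 vs. MOG and of Egr4 in GV16 vs. MOG was missing (NA) from DESeq2 on 6 libraries. Over the 22 alternatives with an adjusted p, Egr3 in GB20 vs. MOG had a log2 fold change of 0.35 to 1.16 and was called in 6 (adjusted p 0.0202 to 0.274), the values under 1 coming from log2 FPKM, where the pseudocount shrinks low genes. Nr4a3 in MOG vs. SHAM was called in 5 of 23 (adjusted p 8.43e-09 to 0.293) and Egr4 in 4 of 23 (2.35e-05 to 0.493). Of the other primary response genes, 1 was called in MOG vs. SHAM and 1 in GB20 vs. MOG; with no filter 2 were called in MOG vs. SHAM, the limma fits of log2 FPKM called 0 in both, and with each library left out 0 to 1 were called in both (Dusp1 in place of Gadd45b in MOG vs. SHAM without SHAM replicate 3). The cause was not tested.

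Signs turned only where the fitted value was smaller than its standard error. With each library left out, the log2 fold change in GB20 vs. MOG ranged from -0.08 to 0.32 for Egr1, -0.05 to 0.28 for Npas4, -0.06 to 0.22 for Junb, -0.11 to 0.03 for Creb1 and -0.03 to 0.1 for Nptx2. In GV16 vs. MOG it ranged from -0.05 to 0.26 for Egr3, -0.62 to 0.7 for Egr4, -0.13 to 0.07 for Nr4a1 and -0.07 to 0.3 for Arc, and in GB20 vs. GV16 from -0.04 to 0.26 for Arc. In GB20 vs. SHAM it ranged from -0.32 to 0.08 for Nr4a1 and -0.29 to 0.09 for Nr4a3, and in MOG vs. SHAM from -0.3 to 0.06 for Junb, -0.09 to 0.02 for Srf, -0.1 to 0.13 for Homer1 and -0.16 to 0.03 for Th.

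With the replicate number as a block, Egr1 in GB20 vs. MOG was -0.02, and the number of the 9 genes called stayed at 0 in MOG vs. SHAM and at 1 in GB20 vs. MOG (Egr3, adjusted p = 0.0488). The main fit did not pair libraries by number, because the labels do not say what a number marks. Deviations from the group means correlated between -0.0983 and 0.352 over 18 pairs of the same number, with a median of 0.0377. Over 36 pairs of different numbers the median was -0.0296. Of the same-number pairs 6 were over 0.1, against 3 of the others. A library correlated best with its own number in 19 of 36 cases, each a choice among 3 libraries. Libraries of the same number were thus somewhat more alike, and whether they share a repeat was not tested. For GB20 and SHAM alone, all 3 pairs were over 0.1 (0.112, 0.352 and 0.231). There Egr1, Egr4 and Npas4 were lower in GB20 in 3 of 3 pairs, and with the block they had log2 fold changes of -0.69, -0.85 and -0.34 (edgeR adjusted p = 0.732, 0.618 and 0.414). The experiment was repeated 3 times, but the labels do not say that a number marks a repeat. The block changed no other call among the 9 genes.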
